A study of Mus musculus with 24 samples.

Results

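Prnd, Prnp and BC049987 are 3 of the 55421 genes listed for each library, and their levels were followed in uninjured mouse carotid arteries of 4 groups. The rows were found by their Ensembl identifiers as named in GENCODE mouse release 21. Prnd and BC049987 were selected on measured values, their low expression with E4 and E2 in these same libraries, so their differences between groups are given as descriptions without a test. Prnp was included as the neighbour of Prnd and not for its values. All mice were of the C57BL/6 strain, aged 9 weeks per the labels, and each group had 6 libraries, each with its own animal number. The OVX group consisted of ovariectomized mice given a placebo (vehicle). The E2 group received estradiol and the E4 group estetrol, a natural estrogen made by the fetal liver, each released from a subcutaneous pellet in ovariectomized mice. The pellets differed in dose between E2 and E4. The TAM group received tamoxifen, a selective estrogen receptor modulator, and the study's text does not describe these mice, so their ovariectomy, dose and route are not given in the sources used here. The E4 libraries were assigned from their titles, because their treatment field reads placebo. The series text gives 3 weeks of treatment, whereas the study's methods give a shorter one.

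Prnp encodes the cellular prion protein, a glycoprotein held at the cell surface by a glycosylphosphatidylinositol (GPI) anchor and abundant in neurons and glia. Prnd, its downstream neighbour, encodes doppel, a GPI-anchored protein with a fold like that of the globular domain of the prion protein. Doppel is known for its high expression in testis, for the male sterility of mice that lack it, and for expression in endothelial cells of the developing brain. Some deletions that remove the coding part of Prnp place Prnd under the Prnp promoter, and doppel made in the brain in this way is toxic to cerebellar neurons. BC049987 is annotated as a long intergenic non-coding RNA, and its function is not described here.

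Total counts per library ran from 24647246 to 64221401 (median 45156107), with the lowest total in E4 replicate C38. RNA of artery wall cells was present, with smooth muscle markers summing to at least 2327 CPM (counts scaled to the library total with edgeR's TMM factors) and endothelial markers to at least 534 CPM in every library. The tissue also held sympathetic ganglion and Schwann cell RNA. Fat RNA was present too, with adipocyte markers summing to 849 to 1870 CPM and brown adipocyte markers to 414 to 1818 CPM. In the 8 ganglion markers, OVX replicate C5 (32.9 CPM in sum) and TAM replicate C35 (134 CPM) stood far below the other libraries of their groups (at least 1573 and 2955 CPM). E2 replicate C9 held 243 CPM of T cell and 274 CPM of thymus markers, against at most 25.8 and 12.6 CPM in any other library. E4 replicate C38 held 2965 CPM of thyroid and parathyroid markers, against at most 120 CPM elsewhere. Because these are bulk samples, fewer cells of a type and less RNA per cell cannot be told apart. Animal numbers fell in a first and a second series in every group, which neither the labels nor the study's text calls batches.

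Prnd (ENSMUSG00000027338) lies on the plus strand of chromosome 2 at 131950861 to 131956130 (GRCm38), starting 12.4 kb beyond the end of Prnp (ENSMUSG00000079037; chromosome 2, 131909928 to 131938429). A further annotated gene, Prn (ENSMUSG00000098754; chromosome 2, 131909957 to 131956130), reads through from one to the other on the same strand. Its first 2 exons lie in exons of Prnp, and its last exon is the last exon of Prnd, base for base. Of the 3211 exon bases of Prnd, 3122 (97.2%) were therefore also exon bases of Prn, and only the first 2 Prnd exons, of 55 and 34 bases, were its own. Prn itself had 103 exon bases of its own, in an exon from 131946371 to 131946473. Only 145 of the 2343 exon bases of Prnp (6.19%) were shared, all with Prn. BC049987 (ENSMUSG00000110755; chromosome 9, 44670453 to 44672238, minus strand) had 1454 exon bases and shared none.

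**Figure D1:**
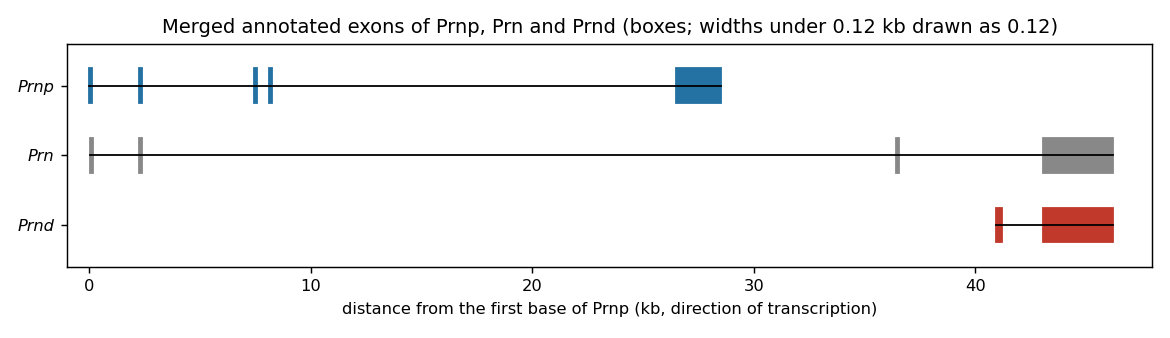
Merged annotated exons (boxes) of Prnp, Prn and Prnd along the distance in kb from the first base of Prnp, drawn in the direction of transcription. The last exon of Prnd is also the last exon of Prn, whereas Prnp shares 145 of its 2343 exon bases with Prn.

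The 250 bases before the RefSeq start of each gene (GRCm38.p6) are shown because they separate the loci: Prnd starts from a promoter of its own inside the last intron of Prn, while Prn and Prnp share 1 window. RefSeq has a second, overlapping window for Prnd, which is not shown. Capitals mark matches, on either strand, to the TATA-like words TATAAA and (in Prnd) TATATA and to the word TGACTCA of the AP-1 motif.
Prnd, chr2:131950611-131950860, plus strand: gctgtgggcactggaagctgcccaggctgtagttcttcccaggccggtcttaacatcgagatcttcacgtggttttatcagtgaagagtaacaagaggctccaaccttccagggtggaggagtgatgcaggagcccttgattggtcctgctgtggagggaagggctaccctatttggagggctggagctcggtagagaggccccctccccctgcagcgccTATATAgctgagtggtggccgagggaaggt
Prnp and Prn, chr2:131909678-131909927, plus strand: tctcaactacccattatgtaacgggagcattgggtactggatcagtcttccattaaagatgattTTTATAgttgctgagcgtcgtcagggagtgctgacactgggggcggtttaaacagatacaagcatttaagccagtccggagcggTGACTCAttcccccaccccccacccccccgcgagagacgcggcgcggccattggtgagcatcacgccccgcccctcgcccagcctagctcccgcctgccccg
BC049987, chr9:44672261-44672510, minus strand: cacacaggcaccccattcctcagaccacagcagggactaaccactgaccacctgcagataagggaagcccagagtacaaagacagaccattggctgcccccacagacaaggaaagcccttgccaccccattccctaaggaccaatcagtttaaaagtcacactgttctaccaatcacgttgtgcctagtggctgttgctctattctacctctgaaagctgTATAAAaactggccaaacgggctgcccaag

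A TATATA match began 30 bases before the start of Prnd and a TATAAA match 30 bases before the start of BC049987. Of 32851 RefSeq windows of the same length, 5.25% held TATATA and 12.4% held TATAAA somewhere. The Prnp window held a TATAAA match on the opposite strand 186 bases before the start and TGACTCA 102 bases before it, the latter found in 4.46% of all windows. The estrogen response element was searched as AGGTCA followed, after 3 bases, by its reverse complement. None of these windows held it with up to 2 mismatches (1.27% of all windows did), nor the half-site AGGTCA alone (14% did). The letters are absent from these windows only, and the matches are a description of sequence.

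Prnd was expressed at a low level in OVX mice and lower still in each treated group. Among the 6 OVX libraries it ran from 1.96 CPM through a median of 2.34 to 3.7, the deposited values being 106 to 168.5. In TAM libraries it ran from 0.447 through 0.93 to 1.3 CPM, in E2 libraries from 0.411 through 0.567 to 0.696, and in E4 libraries from 0.161 through 0.273 to 0.289. The OVX libraries lay above every treated library, and every E4 library lay below every E2 and TAM library. The group means followed the order OVX (2.57 ± 0.693), TAM (0.902 ± 0.361), E2 (0.563 ± 0.0961) and E4 (0.252 ± 0.0502 CPM; SD, n = 6 each). TAM and E2, neighbours in this order, overlapped. The 4.0 to 12.5 deposited counts behind the E4 values limit how finely the lowest levels can be resolved. The lowest of them was in replicate C38, the library of lowest depth and of high thyroid and parathyroid markers.

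On the log2 scale the fitted difference of Prnd was -3.26 with E4 against OVX (standard error 0.20), a 9.61-fold lower level, and -2.18 with E2 against OVX (standard error 0.18), a 4.54-fold lower level. Both comparisons use the same OVX libraries. With E4 against E2 it was -1.08 (standard error 0.21). These 3 values belong to the selection and were given no test. Of the 24669 genes fitted, 2.5% passed the call thresholds (Benjamini-Hochberg adjusted p below 0.05 in edgeR's quasi-likelihood test and more than a 2-fold difference) with E4 against OVX, 1.22% with E2 against OVX and 2.26% with E4 against E2. The CPM of the groups did not overlap in 9.48%, 2.85% and 6.21% of genes. In the first and second number series, which are parts of the same selected libraries, the values were -3.23 and -3.22 for E4 and -2.13 and -2.18 for E2. Without E4 replicate C38 the E4 value was -3.18, and without E2 replicate C9 the E2 value was -2.25.

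The tamoxifen libraries took no part in the selection, but the OVX, E2 and E4 libraries they are compared with did, so the differences of Prnd and BC049987 with TAM are descriptions too and carry no p-value. Prnd was lower with TAM than with OVX, at a log2 fold change of -1.50 (standard error 0.23), and the libraries of the groups did not overlap. It was higher with TAM than with E4 (log2 fold change 1.76, standard error 0.26), again without overlap. TAM and E2 overlapped (log2 fold change 0.68, standard error 0.24). Of the 25056 genes in the fit of 24 libraries, the share called was 0.315% for TAM against OVX, 0.2% for TAM against E4 and 1.65% for TAM against E2, and the share without overlap was 2.57%, 0.91% and 4.22%. In the first and second number series Prnd was at -1.60 and -1.32 with TAM against OVX and at 1.63 and 1.90 with TAM against E4.

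**Figure D2:**
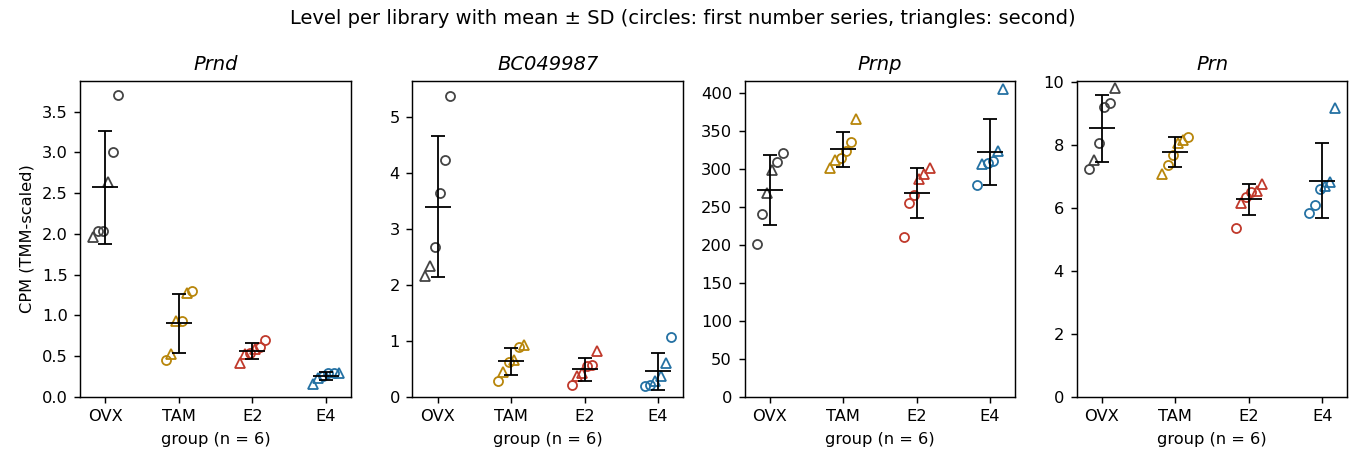
CPM of Prnd, BC049987, Prnp and Prn in each library of the OVX, TAM, E2 and E4 groups, on linear axes from 0, with circles for the first and triangles for the second number series and bars for the mean ± SD (n = 6). For Prnd and BC049987 the OVX libraries lie above every treated library, whereas Prnp overlaps between all groups.

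The deposited values carried marks of reads divided between the overlapping genes. Values with decimals occurred in exactly 2 of Prnp, Prn and Prnd in 17 libraries and in none of the 3 in the other 7, and the 3 values summed to a whole number in 24 of 24 libraries. BC049987, which overlaps no gene, had whole values in every library. Prn had 8.53 ± 1.06 CPM in OVX, 7.77 ± 0.47 in TAM, 6.28 ± 0.491 in E2 and 6.87 ± 1.2 in E4 mice (SD, n = 6 each). Against OVX, Prn had log2 fold changes of -0.44 with E2 (standard error 0.11), -0.31 with E4 (standard error 0.11) and -0.14 with TAM (standard error 0.10), given without a test since it shares reads with Prnd.

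Over the 24 libraries, Prn was described by 0.0207 times Prnp plus 1.13 times Prnd, with a median gap of 2.9% and a largest gap of 14.9% of the Prn value. Prnp alone left a median gap of 8.85% and a largest gap of 36.2%. The Prnp term made up 5.65 of the 8.53 CPM of Prn in OVX and 6.67 of the 6.87 CPM in E4 mice. What remained of Prn after the Prnp term was 2.88 ± 1.04 CPM in OVX, 1.04 ± 0.437 in TAM, 0.72 ± 0.423 in E2 and 0.206 ± 0.434 in E4 mice (SD, n = 6 each). Because the coefficients were fitted together, this remainder is the Prnd term plus the error of the fit, and its order follows from the construction. The coefficients were fitted on these libraries and carry no test. When the whole Prn value was added to Prnd before the fit, an alternative chosen after seeing the data, the log2 fold change of the sum was -0.64 with E4 against OVX, -0.70 with E2 against OVX and -0.36 with TAM against OVX. E4 against E2 was then 0.06, of the opposite sign, and TAM against E4 was 0.28. In E2 mice the Prnp term made up 5.56 of the 6.28 CPM of Prn. The sum thus held mostly Prn, and most of Prn lay in the Prnp term. For this reason the sum cannot show how doppel reads counted under Prn bear on the Prnd difference. The share of Prn that comes from doppel transcripts was not tested.

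**Figure D3:**
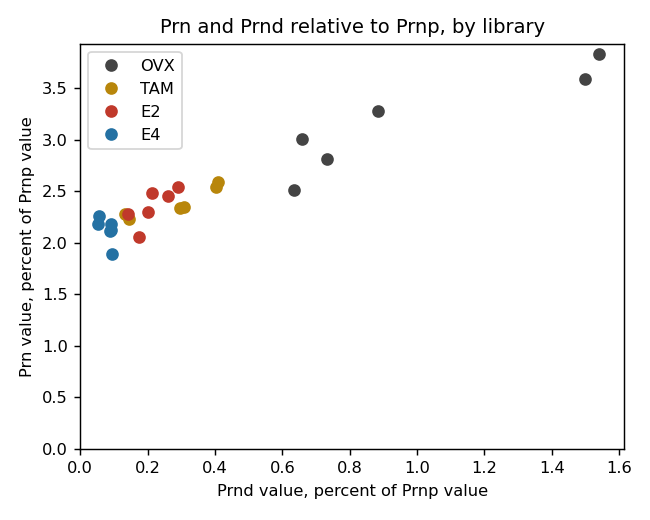
Value of Prn against value of Prnd in each of the 24 libraries, both as percent of the Prnp value, on axes from 0. OVX libraries have 2.51% to 3.83% Prn and 0.636% to 1.54% Prnd, and E4 libraries 1.89% to 2.26% Prn and 0.0525% to 0.0934% Prnd.

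BC049987 was also low in OVX mice and lower in every treated library. Among OVX libraries it ran from 2.15 CPM through a median of 3.15 to 5.38, with 110 to 211 deposited counts. In TAM libraries it ran from 0.29 through 0.639 to 0.918 CPM, in E2 libraries from 0.209 through 0.482 to 0.813, and in E4 libraries from 0.187 through 0.324 to 1.07. All OVX libraries lay above all others, and the 3 treated groups overlapped one another. Of all genes, 9.48% had no overlap between E4 and OVX, 2.85% between E2 and OVX and 2.57% between TAM and OVX. The means were 3.4 ± 1.26 in OVX, 0.635 ± 0.245 in TAM, 0.488 ± 0.205 in E2 and 0.452 ± 0.338 CPM in E4 mice (SD, n = 6 each).

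The fitted log2 fold change of BC049987 was -2.90 with E4 against OVX (standard error 0.39) and -2.80 with E2 against OVX (standard error 0.38), 7.47-fold and 6.97-fold lower levels, given without a test because they belong to the selection. E4 against E2 was -0.10 (standard error 0.41, 95% interval -0.96 to 0.76), and its sign was not stable. It was 0.10 without E2 replicate C29, 0.06 without E4 replicate C19 and 0.07 without E4 replicate C20. E4 replicate C16 was at 1.07 CPM, against 0.187 to 0.6 in the other E4 libraries, and without it E4 against E2 was -0.55. With TAM against OVX it was -2.41 (standard error 0.36). TAM against E2 was 0.39 (95% interval -0.40 to 1.19) and TAM against E4 was 0.49 (95% interval -0.32 to 1.30), or 0.94 without E4 replicate C16. The first and second number series gave -3.05 and -2.37 for E4 and -3.18 and -2.09 for E2. For TAM against OVX they gave -2.73 and -1.73.

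**Figure D4:**
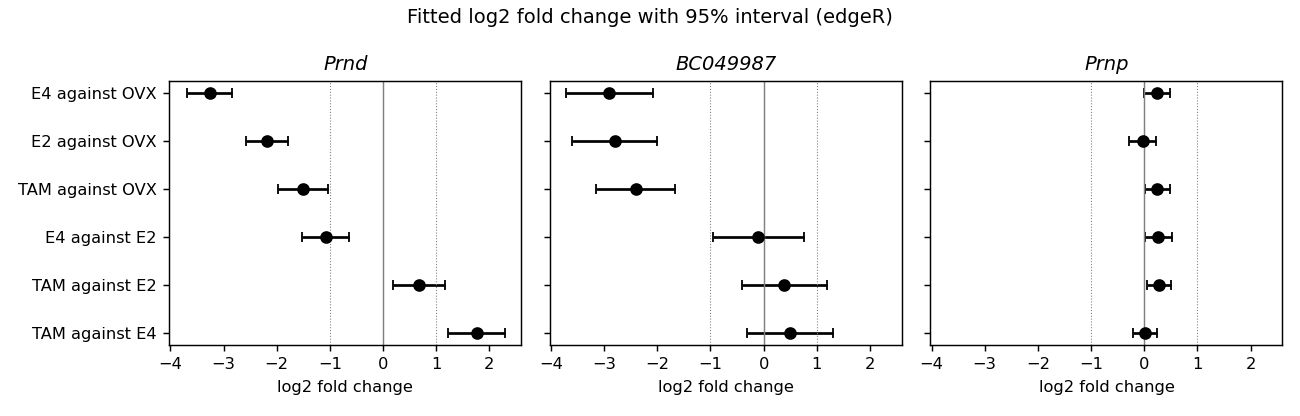
Fitted log2 fold change (points) with 95% interval (bars, not adjusted for the number of genes) of Prnd, BC049987 and Prnp in 6 comparisons, with dotted lines at the fold-change threshold on either side of 0. Prnd with E4 against OVX lies at -3.26, and every Prnp interval lies within 0.52 of 0.

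Prnp was abundant and differed little between groups. It ran from 201 CPM through a median of 283 to 321 in OVX libraries, from 301 through 320 to 366 in TAM, from 211 through 277 to 301 in E2 and from 279 through 310 to 406 in E4 libraries. All 4 groups overlapped, and the highest value belonged to E4 replicate C39. No comparison passed the thresholds. The log2 fold change was 0.24 with E4 against OVX (95% interval -0.01 to 0.49, edgeR adjusted p = 0.157), -0.02 with E2 (interval -0.28 to 0.23, edgeR adjusted p = 0.971) and 0.25 with TAM (interval 0.02 to 0.48, edgeR adjusted p = 0.195). It was 0.26 with E4 against E2 (edgeR adjusted p = 0.151), 0.28 with TAM against E2 (edgeR adjusted p = 0.146) and 0.01 with TAM against E4 (edgeR adjusted p = 0.975). Per kilobase of exon, Prnp stood at 117 ± 19.6 CPM in OVX mice, BC049987 at 2.34 ± 0.866 and Prnd at 0.8 ± 0.216 (SD, n = 6 each).

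Levels of other cell types moved with these genes across the libraries. Of 14 marker lists, the mean of the 5 Schwann cell markers followed Prnp most closely (Pearson r = 0.85 over 24 libraries, and 0.77 with group means subtracted). E4 replicate C39, the library highest in Prnp, was also highest in summed Schwann markers (3757 CPM, against 1335 to 2109 in the other E4 libraries). For Prnd, the 2 highest r were with the 5 B cell markers (0.74, and 0.57 with group means subtracted) and the 2 brown adipocyte markers (0.75 and 0.52). All 5 B cell markers passed the thresholds toward lower levels with E4 against OVX, none with E2 and 2 with TAM. Of all genes, 2.5%, 1.22% and 0.315% passed in these comparisons. The summed level of the B cell markers ran from 4.41 to 30.5 CPM in OVX, 2.93 to 9.14 in TAM, 4.53 to 13.1 in E2 and 2.1 to 6.23 in E4 libraries. With the B cell marker mean as a covariate, Prnd was at -2.91 with E4 and -2.00 with E2. For TAM against OVX, Prnd was then at -1.12 and BC049987 at -2.33. Within groups, BC049987 did not follow the B cell markers (r = 0.01 with group means subtracted, 0.57 without). Its highest r over the 24 libraries was with the brown adipocyte markers (0.71, and 0.37 with group means subtracted). No fit had the brown adipocyte markers as a covariate.

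Prnd ran opposite to the ganglion markers (r = -0.52, and -0.56 with group means subtracted), and its highest OVX value, 3.7 CPM, was in replicate C5, the library lowest in them. Without OVX replicate C5 and TAM replicate C35, Prnd was at -3.13 with E4, -2.05 with E2 and -1.48 with TAM against OVX, and BC049987 at -2.83, -2.73 and -2.25. Called genes of the other lists against OVX were 1 of 7 endothelial markers (higher with E4 and with E2), 1 of 5 macrophage markers (higher with E2), 1 of 4 adipocyte markers (lower with E4 and with TAM) and 1 of 2 brown adipocyte markers (lower with E4). Of all genes, 2.5% were called with E4, 1.22% with E2 and 0.315% with TAM. No tested marker of the smooth muscle, fibroblast, ganglion, Schwann, T cell, neutrophil, skeletal muscle, thyroid and parathyroid, and thymus lists was called against OVX, but only 3 of 5 neutrophil, 3 of 6 thyroid and parathyroid and 2 of 4 thymus markers could be tested. With E4 against E2, 3 of 5 macrophage, 4 of 5 T cell, 2 of 2 tested thymus and 1 of 4 adipocyte markers were called lower. There, 1 of 3 tested thyroid and parathyroid markers was higher, and 2.26% of all genes were called. With TAM against E2 (1.65% of all genes), 2 of 5 macrophage and 1 of 4 adipocyte markers were lower, and thyroid and parathyroid calls went both ways. The part of any of these cell types in the levels of Prnd and BC049987 was not tested.

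The other prion family member, Sprn, which encodes the GPI-anchored protein shadoo, was at 23.6 ± 12.5 CPM in OVX and 39.1 ± 5.83 in E4 mice (SD, n = 6 each). The difference, 0.73 on the log2 scale, did not pass (95% interval -0.11 to 1.56, edgeR adjusted p = 0.189). Sprn followed the ganglion marker mean (r = 0.98 over 24 libraries, and 0.99 with group means subtracted). It was at 2.14 CPM in OVX replicate C5, against 17.6 to 37.2 in the other OVX libraries, and at 5.23 CPM in TAM replicate C35, against 31.5 to 44 in the other TAM libraries. The ganglion markers had a median log2 fold change of 0.97 with E4 against OVX, and their part in the Sprn difference was not tested. In a list of 10 partners and processing enzymes of the prion protein and doppel, 9 were tested, and 0 passed the thresholds in any of the 6 comparisons. At an adjusted p below 0.05 alone in the edgeR test, 2 of 9 passed with E4 against OVX, a share near the 21.7% of all genes that did, and 1 of 9 with E2, where 3.88% did. Lrp1, a receptor that carries the prion protein into the cell, was at 315 ± 39.3 CPM in OVX, 467 ± 44.5 in E2 and 433 ± 90.1 in E4 mice (SD, n = 6 each), with log2 fold changes of 0.57 (edgeR adjusted p = 0.0125) and 0.46 (edgeR adjusted p = 0.0171) against OVX, and of 0.46 with TAM (edgeR adjusted p = 0.0578). Stip1, a co-chaperone that binds the prion protein, was the other gene that passed with E4 (log2 fold change 0.30, edgeR adjusted p = 0.0453), and it was at 0.32 with E2 (edgeR adjusted p = 0.0929) and 0.22 with TAM (edgeR adjusted p = 0.318). The median log2 fold change of the list was 0.09 with E4 and 0.05 with E2 against OVX, and -0.01 and 0.01 over all genes tested.

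None of 8 genes of GPI anchor transfer and remodelling was called in any of the 6 comparisons, with median log2 fold changes of 0.08 with E4 and 0.02 with E2. At an adjusted p below 0.05 alone, 3 of the 8 passed with E4 against OVX, where 21.7% of all genes did, and went both ways. Pigt (log2 fold change 0.68, edgeR adjusted p = 0.0019) and Pigs (0.57, edgeR adjusted p = 0.00351), subunits of the transamidase that attaches the anchor, were higher. Piga (-0.51, edgeR adjusted p = 0.00802), which acts at the first step of anchor synthesis, was lower. The same 3 genes passed with E4 against E2, where 10.9% of all genes did. Pigt passed with TAM against OVX, where 2.23% did, and 0 of the 8 with E2 against OVX, where 3.88% did. Of 3 estrogen target genes used for orientation, Greb1 passed with E4 (log2 fold change 1.15) and E2 (2.41), Pgr with E2 (1.12), and Esr1, which encodes estrogen receptor alpha, was at -0.86 with E4 and -0.38 with E2. With TAM against OVX the 3 genes ran from -0.55 to 0.72, and 0 were called.

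Genes starting within 500 kb of Prnd showed no lower level of like size. Of 22 annotated genes, 12 were tested, with log2 fold changes from -0.39 to 0.67 with E4, -0.56 to 1.16 with E2 and -0.19 to 0.40 with TAM against OVX. The nearest tested genes were Prnp, Prn and Adra1d (0.06 with E4) on one side, and Rassf2 (-0.39), Slc23a2 (0.19) and Tmem230 (0.07) on the other. The single call, 1 of 12 with E2 where 1.22% of all genes were called, was AV099323, an antisense gene that was higher with E2 (log2 fold change 1.16, edgeR adjusted p = 0.0152).

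Around BC049987, 53 of 78 genes were tested, 3 of which (5.66%) passed with E4 against OVX, where 2.5% of all genes did, and none with E2 or TAM. Cxcr5, a chemokine receptor of B cells, was lower (log2 fold change -1.45, edgeR adjusted p = 0.0107), as was Gm47234 (-1.03), and the small nucleolar RNA gene Gm24166 was higher (1.32). The nearest tested genes were Gm47234, E030022I16Rik (-0.81) and Ddx6 (0.02) on one side and Gm47239 (-0.77), Phldb1 (0.02) and Gm24166 on the other. With E4 against E2, Gm24166 was higher, and Cd3g (-2.95) and Cd3d (-3.22), components of the T cell receptor complex, were lower. Cd3g and Cd3d were at 18 and 17.8 CPM in E2 replicate C9 and at most 2.6 and 2.03 CPM in the other E2 libraries. Without that library neither was called, at -0.98 (edgeR adjusted p = 0.298) and -1.31 (edgeR adjusted p = 0.203).

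**Figure D5:**
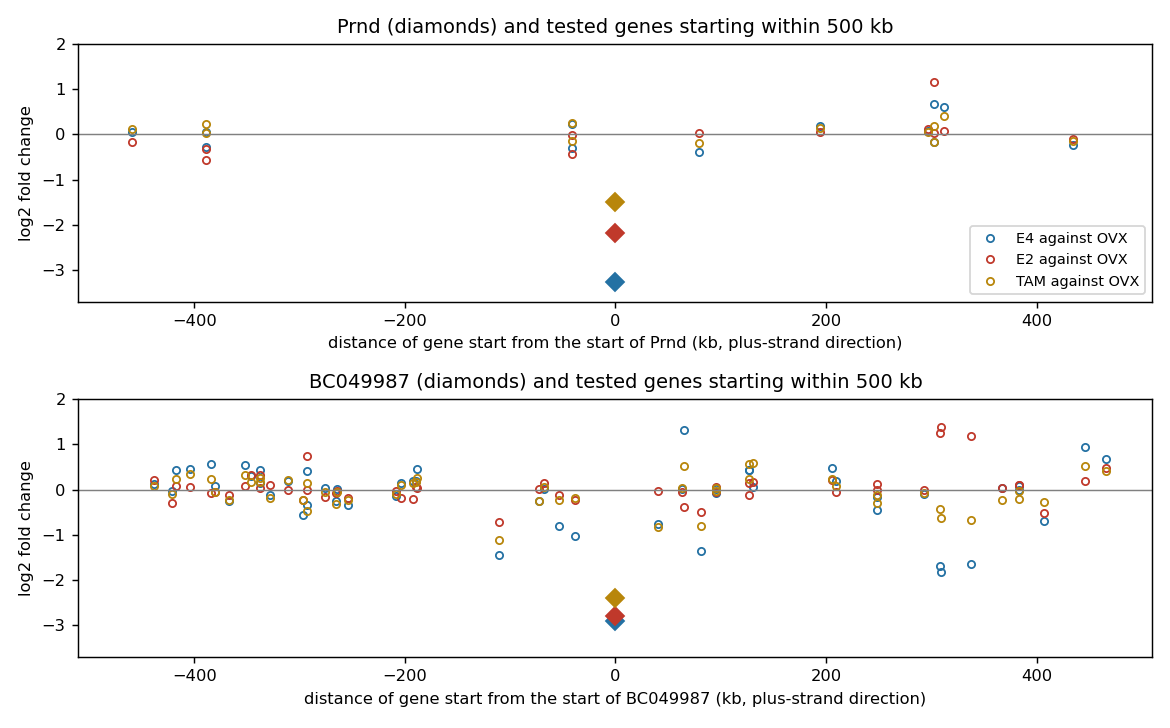
Log2 fold change with E4, E2 and TAM against OVX for tested genes that start within 500 kb of Prnd (upper panel) or BC049987 (lower panel), plotted against the distance of their start in kb, with the member itself as diamonds. In the Prnd panel all neighbours lie between -0.56 and 1.16.

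The genes most like each member in pattern were taken by Pearson correlation of log2 (CPM + 0.1) over 24 libraries, among genes with a mean of at least 1 CPM. For Prnd these were 2010003K11Rik (r = 0.90), Fam198a (0.87), Nat8f3 (0.86), Ifi203-ps (0.86) and Gm37784 (0.86). 2010003K11Rik was at 8.58 CPM in OVX, 4.14 in TAM, 3.72 in E2 and 1.98 in E4 mice, the order of Prnd. For BC049987 they were Tfrc (0.90), the transferrin receptor, Insig1 (0.86), a regulator of sterol synthesis, 2010003K11Rik (0.85), Aldh3b2 (0.83) and Gm37784 (0.83). Prnd and BC049987 themselves correlated at 0.81, and at 0.04 with group means subtracted. Both were selected for low levels with E4 and E2 in these libraries, so the first value was set in part by the selection. For Prnp they were Gm2895 (0.95), Slc44a1 (0.95), Ndrg1 (0.94), a gene known for its part in Schwann cells, Gm17035 (0.93) and Tns3 (0.93). Gm2895 and Gm17035 both overlap the span of Ndrg1 on chromosome 15, so their reads may not be separate from it. With group means subtracted, 0 of the 5 genes were retained for Prnd, 0 for BC049987 and 2 for Prnp. The points share libraries and depth, and no test is attached.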

How the data were processed

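RNA was isolated from carotid arteries, and libraries were made with a stranded mRNA kit and sequenced in pairs of 150 bases. The submitters' processing notes name bcl2fastq 2.17, Trim Galore, Bowtie2 and featureCounts with mm10/GRCm38. For every library the authors deposited a table of estimated counts, not normalized, and the strand setting and the handling of overlapping genes are not given in the sources used here. Among whole values up to 20, the median ratio of odd to even values was 0.794. Of 55421 identifiers, 55240 matched GENCODE release 21.

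Values were rounded to whole numbers, with ties rounded upward, and tested with edgeR 4.0.16 (R 4.3.3; TMM scaling, default filter on low counts, quasi-likelihood test, Benjamini-Hochberg adjustment), in 1 fit of the 18 OVX, E2 and E4 libraries and, for TAM, in 1 fit of all 24. Ties were first rounded to even numbers; the upward rule was adopted after those results had been seen, and both are compared in the closing section. Calls required an adjusted p below 0.05 and more than a 2-fold difference. Standard errors come from the F statistic. CPM was computed from the unrounded values. The procedure was tested on simulated data. Each library carries its own animal number, and p-values weigh the group difference against the spread between these libraries. Python 3.11.15 and DESeq2 1.42.0 were also used.

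The design foresaw tests of Prnd and BC049987 with TAM; these are given without p-values, because the compared groups took part in the selection. The members and gene lists were chosen with earlier results of these data known. Genes were named by a rule: the members, overlapping genes, the 3 nearest tested genes on each side, called genes within 500 kb, and the 5 most correlated genes. Sprn and the estrogen targets come from the fixed lists, as do Lrp1, Stip1, Pigt, Pigs and Piga, which were chosen after their values were seen. Intervals are 95% confidence intervals of the fitted difference between groups, built from the spread between libraries, and are not ranges of the libraries. Promoter windows are from RefSeq. Protein sequences were not used here.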

Additional observations from a re-analysis of the deposited data

Results flagged for a closer look

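In E4 replicate C39, Prnp was at 406 CPM, against 279 to 324 in the other E4 libraries, a gap of 0.65 of the group's range. Prn, which shares exon bases with Prnp, was at 9.19 CPM in the same library, against 5.83 to 6.83 in the others (gap 0.701). A library so far from the rest was looked for in 16 groups of 6 libraries, of which chance gives 0.8. Schwann cell markers were also highest in this library, and their part in these values was not tested.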

How the results depend on the processing

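Prnd and BC049987 carry no test, so only their values are compared. Of 408 fold changes of these genes under alternatives, 400 moved by less than 1 SD between mice (0.37 for Prnd and 0.60 for BC049987 on the log2 scale). Many of the 408 left out a library of a group not compared, which could hardly move the value. For example, Prnd with E4 against OVX stayed at -3.26 when any 1 E2 library was left out. The count therefore overstates how stable the values were. Adding Prn to Prnd (chosen after seeing the data) gave -0.64 for E4 against OVX, -0.70 for E2 against OVX, -0.36 for TAM against OVX, 0.28 for TAM against E4 and, with the opposite sign, 0.06 for E4 against E2. That sum held mostly Prn, so these values do not describe Prnd alone. Prnd with TAM against OVX moved to -1.12 with the B cell covariate. BC049987 moved to -2.09 with E2 and -1.73 with TAM against OVX in the second series. Apart from the addition of Prn, Prnd with E4 against E2 ran from -1.17 to -0.91, the latter with the B cell covariate. BC049987 with E4 against E2 ran from -0.55 to 0.13, changing sign. The causes were not tested.

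Of 219 values of Prnp, which also include fits without a library of a group not compared, 210 kept their direction and stayed short of the thresholds. Prnp, never called, changed sign with E4 against OVX under the B cell covariate (-0.02), and in the second series with E2 against OVX (0.04) and TAM against E4 (-0.09). Leaving out 1 library each time gave -0.10 to 0.04 and -0.03 to 0.09 for those last comparisons. Rounding ties to even numbers, the rule first used, gave -3.33 for Prnd with E4 against OVX, -1.15 with E4 against E2 and 1.83 with TAM against E4. Around Prnd, E2 called 0 genes within 250 kb and 2 within 1000 kb. After subtracting group means, 0, 2 and 0 of the 5 genes most like Prnd, Prnp and BC049987 were shared. Over the alternatives the number of genes called ran from 41 to 5348 (E4 against OVX), 141 to 956 (E2 against OVX), 0 to 558 (TAM against OVX), 0 to 2690 (E4 against E2), 94 to 1604 (TAM against E2) and 1 to 86 (TAM against E4), the highest each time without the fold-change threshold. No paired analysis was possible because the groups share no replicate numbers. At 4.0 to 12.5 counts per library, Prnd in E4 mice is limited by depth.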

Other observations

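Prnd and BC049987 also ran with the 2 brown adipocyte markers across the 24 libraries (Pearson r = 0.75 and 0.71, and 0.52 and 0.37 with group means subtracted). The summed level of these markers was 653 to 1818 CPM in OVX, 547 to 915 in TAM, 445 to 1130 in E2 and 414 to 670 in E4 libraries. The values are a description, and the part of brown fat in the members' levels was not tested.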
